A study of Rattus norvegicus with 12 samples.

Results

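The genes described here encode the kainate receptor subunits GluK1 to GluK5 (Grik1, Grik2, Grik3, Grik4 and Grik5) and the delta receptor subunit GluD1 (Grid1). They were chosen by name, as the rat genes to which array probes map through their RefSeq accessions, and all 6 had a probe among the 15154 genes that could be named. Their mRNA was measured in primary hippocampal neurons of Wistar rat embryos (embryonic day 18), kept in Neurobasal medium for 14 to 15 days. Cultures of the OGD groups were placed in a glucose-free saline buffer, with sucrose in place of glucose, in an anaerobic chamber (oxygen-glucose deprivation, an in vitro model of global ischemia), and control cultures (Ctrl) in a similar buffer with 25 mM glucose under air and CO2. Both were then returned to conditioned medium, and RNA was collected after 7 h or 24 h of recovery from 3 cultures in each of the 4 groups, which gave 12 one-colour arrays. The cultures also hold some glial cells, so the RNA is that of a mixed culture.

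Kainate receptors are tetrameric glutamate-gated ion channels. GluK1, GluK2 and GluK3 form working channels on their own, whereas GluK4 and GluK5, which bind kainate with higher affinity, need one of these subunits as a partner. In the hippocampus kainate receptors act on both sides of the synapse and are best known at the synapses of mossy fibres on CA3 pyramidal cells. Delta receptors share the fold of this receptor family but are not opened by glutamate. They bind secreted cerebellin and C1q-like proteins and through them bridge the synaptic cleft to presynaptic neurexins.

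The array of OGD replicate 1 at 24 h stood apart from the others. Its median probe intensity was 75.2 units, against 121 to 294 on the other 11 arrays, and its mean correlation with the arrays of its own group was 0.962, against 0.973 to 0.991 elsewhere. Control and OGD arrays with the same time and replicate number lay on 1 slide, so a value could be compared within each of the 6 slides. Recovery time and slide cannot be told apart. On the slides of replicates 1 and 2 at 7 h and of replicate 1 at 24 h, the control and OGD arrays were not scanned together. Within these slides, scan and treatment cannot be told apart. Between 73.3% and 83.9% of the probes were well above background on each array. The 11 neuronal marker genes with a probe (such as Map2 and Tubb3) were well above background on all 12 arrays. All levels below are log2 values relative to the median probe of the same array, so that 1 unit is a factor of 2, and levels are compared only within a probe.

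Of the 6 genes, Grid1 was higher at 7 h after OGD and Grik4 was lower at 24 h, by an unadjusted limma p under 0.05. No change at either time passed after adjustment over all 30367 probes, and neither reached a fold of 2. The count of 1 gene higher and 0 lower at 7 h stands beside 4.79% of all probes called higher and 7.03% called lower. At 24 h the count was 0 higher and 1 lower, beside 7.51% higher and 6.19% lower. With the added demand of a fold of 2, 0 of the 6 genes were called at 7 h and 0 at 24 h, where 3.74% and 5.67% of all probes were. Over all probes limma called 0 at an adjusted p under 0.05 at either time, and 3590 (7 h) and 4160 (24 h) at an unadjusted p under 0.05. The lowest adjusted p of any probe was 0.117 at 7 h and 0.209 at 24 h. The median change of the 6 genes was 0.01 at 7 h and −0.44 at 24 h, beside −0.11 and −0.03 for all named genes.

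**Figure D1:**
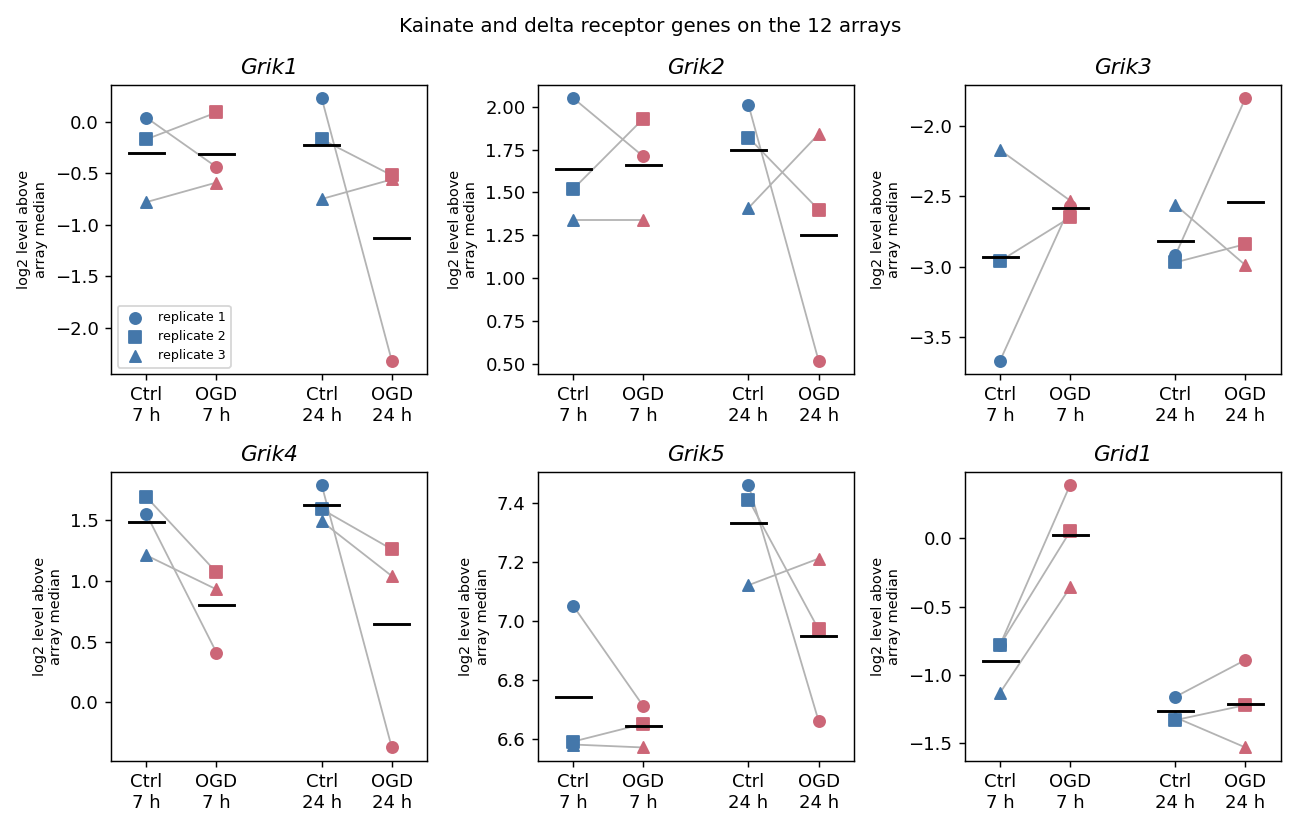
Each panel plots 1 gene as its log2 level above the array median (vertical axis, a scale of its own in each panel) on the 3 arrays of each group (horizontal axis). Symbols mark the replicate, grey lines join the 2 arrays of a slide and black bars are group means; Grid1 at 7 h and Grik4 at both times separate OGD from control, and the lowest Grik1, Grik2 and Grik4 points at 24 h all belong to OGD replicate 1.

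Grik1, Grik2 and Grik3 encode the subunits that can form channels alone. Grik1 had 2 probes, and the brighter one is used here. Its level at 7 h was 0.04, −0.17 and −0.78 on the control arrays of replicates 1, 2 and 3, and −0.44, 0.09 and −0.59 on the OGD arrays. The groups overlapped fully, and the difference was −0.01 (SE 0.47, limma adjusted p = 0.997). At 24 h the control levels were 0.23, −0.17 and −0.75 and the OGD levels −2.32, −0.52 and −0.56. Replicate 1 alone lay far below the controls, while the other OGD arrays lay within their range. The difference was −0.91 (SE 0.47, 95% interval −1.95 to 0.13), with a limma adjusted p of 0.415, and it was −0.31 without OGD replicate 1. Leaving out single arrays gave −1.21 to −0.31, with a lowest unadjusted limma p of 0.0389. The second Grik1 probe, annotated to another transcript, followed the first with a Pearson r of 0.98 over the 12 arrays, and gave −0.09 (adjusted p = 0.957) at 7 h and −0.95 (adjusted p = 0.494) at 24 h.

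Grik2 at 7 h stood at 2.05, 1.52 and 1.34 in control and 1.71, 1.93 and 1.34 in OGD cultures. The values overlapped, and the difference was 0.02 (SE 0.34, limma adjusted p = 0.983, 95% interval −0.73 to 0.77). At 24 h the control values were 2.01, 1.82 and 1.41 and the OGD values 0.52, 1.40 and 1.84. Here too replicate 1 was the low array, and replicate 3 was above its control. The difference of −0.49 (SE 0.34, limma adjusted p = 0.524) became −0.13 without OGD replicate 1. Over all single arrays left out it ran from −0.78 to −0.13, with a lowest unadjusted limma p of 0.042.

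Grik3 gave a dim signal, with intensities between 20.4 and 59.2 units where the lowest probe well above background lay at 5.62 to 23.5 units, depending on the array. On the control array of replicate 1 at 7 h it was not well above background. Its levels at 7 h were −3.67, −2.96 and −2.17 in control and −2.57, −2.65 and −2.53 in OGD cultures. The control arrays spread more widely (SD 0.75, n = 3) than the OGD arrays (SD 0.06, n = 3) and enclosed them. At 24 h the control levels were −2.92, −2.97 and −2.56 and the OGD levels −1.80, −2.84 and −2.99. OGD replicate 1 was the highest, unlike its place for Grik1 and Grik2. Before scaling, however, its intensity of 21.6 units was the lowest of the 24 h arrays. The differences of 0.35 (SE 0.39, limma adjusted p = 0.743) at 7 h and 0.27 (SE 0.39, adjusted p = 0.775) at 24 h did not pass. Their 95% intervals, −0.51 to 1.20 and −0.58 to 1.13, hold changes in either direction.

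Grik4 and Grik5 encode the high-affinity subunits. Grik4 at 7 h stood at 1.55, 1.69 and 1.21 in control and 0.41, 1.07 and 0.93 in OGD cultures, and at 24 h at 1.79, 1.59 and 1.49 in control and −0.37, 1.26 and 1.04 in OGD cultures. Every OGD array was below every control array of its time, and on each of the 6 slides the OGD value was below the control value. The within-slide differences were −1.15, −0.62 and −0.28 at 7 h and −2.16, −0.33 and −0.45 at 24 h. Groups that do not overlap were found for 26.1% of all probes at 7 h and 17.9% at 24 h, and for 2 (Grik4 and Grid1) and 1 (Grik4) of the 6 genes. The probe was spotted 10 times on each array, and the spread between its spots (SD 0.042 to 0.118) was small beside that between cultures (SD 0.89 in the OGD group at 24 h).

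The Grik4 difference was −0.68 at 7 h (SE 0.378, 95% interval −1.52 to 0.15), with a limma adjusted p of 0.497. At 24 h it was −0.98 (SE 0.378, 95% interval −1.81 to −0.15), 1.97-fold lower, with a limma adjusted p of 0.316. The call at 24 h was lost without OGD replicate 1 (−0.47), without control replicate 1 (−0.90) and without control replicate 2 (−1.0). It was also lost with spike-in scaling (−2.0, SE 1.12), the methods' t-test and limma on each time alone. Leaving out OGD replicate 1 of 24 h took the 7 h difference, still −0.68, past the unadjusted threshold, since the 4 groups share 1 estimate of the spread. Without the OGD arrays of replicate 1 at both times, a setting chosen after seeing the data, the differences were −0.49 and −0.47 and both passed it.

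Grik5 gave a bright and unsaturated signal, between 7590 and 39000 units. At 7 h its levels were 7.05, 6.59 and 6.58 in control and 6.71, 6.65 and 6.57 in OGD cultures. The difference was −0.10 (SE 0.205, limma adjusted p = 0.866), with the narrowest interval of the 6 genes, −0.55 to 0.36. At 24 h the levels were 7.46, 7.41 and 7.12 in control and 6.66, 6.97 and 7.21 in OGD cultures. The OGD arrays of replicates 1 and 2 were below all controls and that of replicate 3 was between them. The difference was −0.38 (SE 0.205, limma adjusted p = 0.426), and it passed the unadjusted threshold (−0.40) after quantile normalization. Single arrays left out moved it between −0.52 and −0.24, with a lowest unadjusted limma p of 0.0358.

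Grid1, the delta receptor gene, went the other way at 7 h. Its levels were −0.78, −0.78 and −1.13 in control and 0.39, 0.05 and −0.36 in OGD cultures. All 3 OGD arrays were above all 3 control arrays, by 1.18, 0.82 and 0.77 within the slides. The difference was 0.92 (SE 0.235, 95% interval 0.40 to 1.44), 1.90-fold higher, with a limma adjusted p of 0.255. It lay between 0.74 and 1.12 when single arrays were left out, past the unadjusted threshold each time.

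This rise is relative to the other probes of the array. Before scaling, the Grid1 intensities at 7 h were 171, 126 and 121 units in control and 159, 187 and 158 units in OGD cultures and overlapped, while the median probe of the arrays was at 216 to 294 units in control and 121 to 202 units in OGD cultures. Scaled on the spike-in RNA instead, the Grid1 difference was 0.15 (SE 1.12) and did not pass. The log2 spike-in signal itself ran from 5.57 to 6.74 over the 7 h arrays. With such an SE a difference of 0.92 could not pass either, so this scaling does not decide whether Grid1 rose. That scaling shifted the median of all probes by −0.83 at 7 h and −1.01 at 24 h. On the 24 h arrays the log2 spike-in signal ran from 9.75 to 12.56, above that of every 7 h array. The highest value, 12.56, was on OGD replicate 1, the array that stood apart.

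At 24 h Grid1 stood at −1.16, −1.33 and −1.31 in control and −0.89, −1.22 and −1.53 in OGD cultures. The groups overlapped, with a difference of 0.05 (SE 0.235, limma adjusted p = 0.967, 95% interval −0.47 to 0.57).

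**Figure D2:**
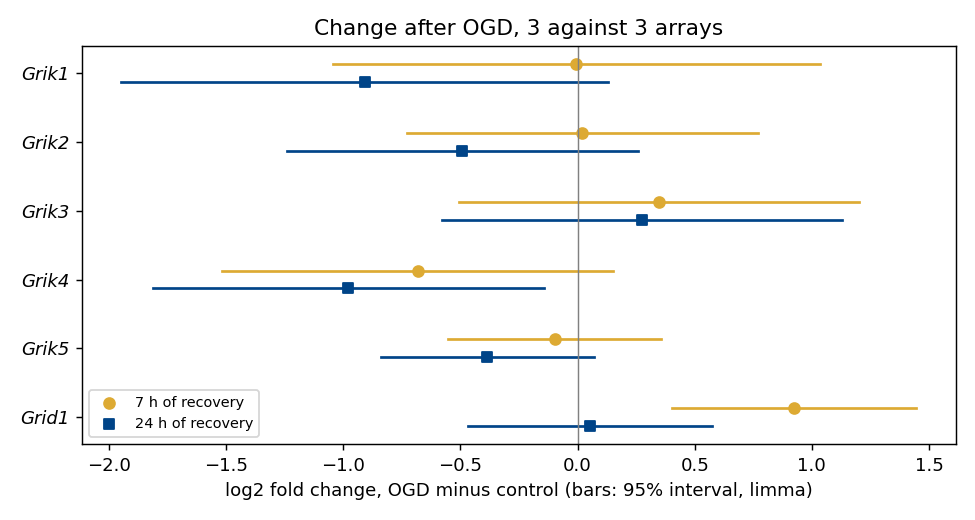
Log2 fold changes of OGD over control (horizontal axis) for the 6 genes (vertical axis), with bars for the 95% interval of the limma fit over 12 arrays, circles for 7 h and squares for 24 h. The intervals of Grid1 at 7 h and of Grik4 at 24 h exclude 0, and the other 10 include it.

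The responses at the 2 times were also compared with each other. The Grid1 response was smaller at 24 h than at 7 h by 0.87 on the log2 scale (SE 0.333, limma adjusted p = 1). It was the only one of the 6 genes past the unadjusted threshold in this comparison, which 3.58% of all probes passed. The call was lost with centring on the 75th percentile, with spike-in scaling (−1.12, SE 1.58) and with the model-based normexp background correction (−0.54). It was also lost without control replicate 3 or OGD replicate 1 of 7 h, or control replicate 1 or OGD replicate 3 of 24 h. For Grik4 the responses differed by −0.30 (SE 0.534), and for Grik1, Grik2, Grik3 and Grik5 by −0.90, −0.51, −0.07 and −0.29. None of these 5 differences passed, and each had a limma adjusted p of 1. A call for Grik4 at 24 h alone therefore does not show a response that differs between the times.

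The order of the group means differed from gene to gene. Between 7 h and 24 h this order is only described, since recovery time and slide cannot be told apart. Grid1 was highest in the OGD group at 7 h (0.03 ± 0.38, SD, n = 3), followed by control at 7 h (−0.90 ± 0.20), OGD at 24 h (−1.21 ± 0.32) and control at 24 h (−1.27 ± 0.09), and the values of neighbours among the last 3 groups overlapped. Grik4 was highest in control at 24 h (1.62 ± 0.15) and at 7 h (1.49 ± 0.25), which overlapped, and lower in OGD at 7 h (0.80 ± 0.35) and 24 h (0.64 ± 0.89), which overlapped as well. Grik5 was highest in control at 24 h (7.33 ± 0.18), and OGD at 24 h (6.95 ± 0.28) overlapped with both control groups, though 2 of its 3 values were below all controls of 24 h.

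Because a ratio of 2 probes on the same array does not depend on how the array is scaled, Grid1 was also set against each kainate receptor gene. At 7 h the log2 ratio of Grid1 to Grik4 was higher after OGD by 1.61, between 1.06 and 2.32 on the 3 slides. Against Grik1, Grik2 and Grik5 the shift was 0.93, 0.90 and 1.02, each upward on 3 of 3 slides. Against Grik3 it was 0.58, with a shift of 0.07 on the slide of replicate 1, whose control array did not show Grik3 well above background. For Grik1, Grik2, Grik4 and Grik5 the OGD and control ratios did not overlap, and the two-sided exact permutation p was 0.1, the smallest that 3 against 3 arrays can give. For Grik3 the ratios overlapped (exact permutation p = 0.5). At 24 h only the ratio to Grik4 separated the groups, with a shift of 1.03 (0.23 to 2.43 on the slides, exact permutation p = 0.1). The other shifts at 24 h were 0.96 (Grik1), 0.54 (Grik2), −0.22 (Grik3) and 0.44 (Grik5), and all of these ratios overlapped. The 5 ratios share the same Grid1 values and are not independent, and none could pass a threshold of 0.05 with 3 arrays a group. A ratio does not show which of its 2 mRNAs changed. These ratios were not among the planned comparisons. They reuse the Grid1 levels already called higher at 7 h, so they are no separate support for that rise. How often ratios of other gene pairs separate the groups was not computed. Of single probes, 26.1% did at 7 h and 17.9% at 24 h.

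**Figure D3:**
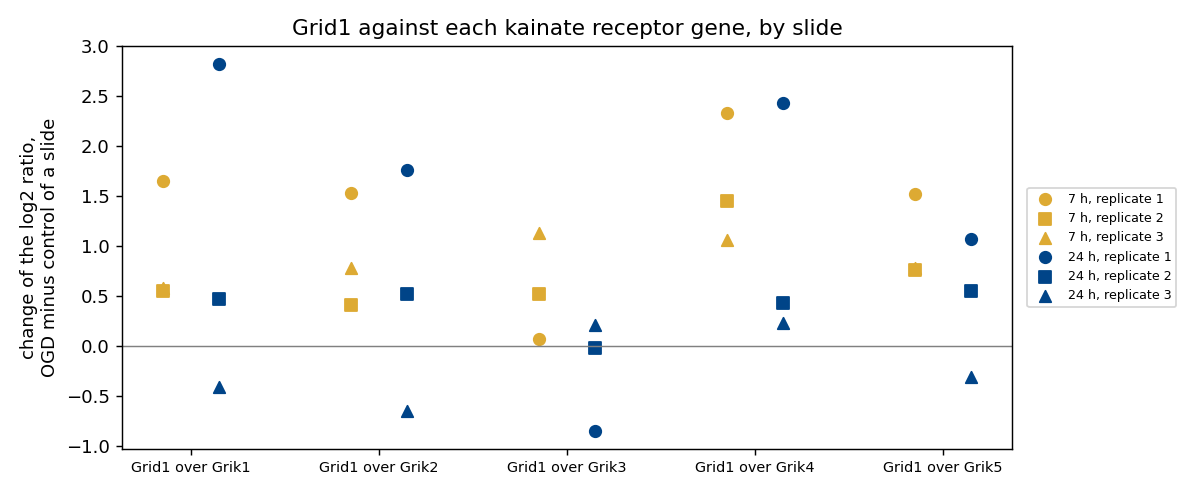
Change of the log2 ratio of Grid1 to each kainate receptor gene between the OGD and the control array of a slide (vertical axis), for 5 gene pairs (horizontal axis), with yellow for 7 h, blue for 24 h and a symbol for each replicate. All 15 points at 7 h lie above 0 (the lowest, 0.07, is against Grik3), and at 24 h the 3 slides agree in sign only against Grik4.

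Over the 12 arrays Grik1 and Grik2 varied together (Pearson r = 0.93), and each also with Grik4 (r = 0.81 and 0.69). Grik3 levels ran opposite to these genes (r = −0.77, −0.81 and −0.70), and Grid1 was most unlike Grik5 (r = −0.60). Grik3 was dim, however, and its level depends on the array median. On the OGD array of replicate 1 at 24 h its intensity was 21.6 units, the array median 75.2 units and its level −1.80. Whether its opposite course goes beyond the scaling of a dim signal was not tested. These are descriptions over arrays that share groups, slides and the array that stands apart. Of all named genes well above background on every array, those most like Grik4 were Serpini1 (r = 0.989), Cabp7 (0.988) and Rab3a (0.987), whose own changes were −0.69, −1.12 and −0.93 (7 h) and −1.33, −1.44 and −1.24 (24 h). Rab3a encodes a small GTPase of synaptic vesicles and Serpini1 a neuronal serine protease inhibitor. Those most like Grid1 were Erc2 (r = 0.949), a protein of the presynaptic active zone, Tmsb10 (0.939) and Arid4b (0.937), which changed by 0.94, 0.57 and 0.62 (7 h) and by −0.26, 0.21 and 0.18 (24 h). For Grik1 they were Nkain3 (0.983), Slco4a1 (0.98) and Tmem276 (0.977), and for Grik2 Cacna1c (0.965), a calcium channel subunit, Atl1 (0.959) and Epb41l4a (0.954). Grik5 was most like Elmo3 (0.973), Mutyh (0.97) and Tcea2 (0.969), and Grik3, with weaker likeness, Tbcel (0.912), Wnk4 (0.884) and Hyal1 (0.878).

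Proteins that bind, carry or modify kainate and delta receptors were examined as a list of 22 genes, of which 21 had a probe and 20 were well above background on all arrays. At 7 h 0 were called higher and 4 lower, and 20 of 21 changes were below 0 (median −0.23). At 24 h 0 were called higher and 4 lower, and 19 of 21 were below 0 (median −0.45). Of all 15154 named genes, 589 were called higher and 1221 lower at 7 h, with 9070 below 0 and a median of −0.11, and 964 and 1045 at 24 h, with 8109 below 0 and a median of −0.03. C1ql2, C1ql1, Pick1 and Grid2ip made up the 7 h calls, and Cbln1, C1ql3, C1ql2 and Dlg4 those at 24 h. With spike-in scaling 1 call at each time was kept, C1ql2 at 7 h (−2.22, SE 1.12) and Cbln1 at 24 h (−2.24, SE 1.12).

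The clearest of these was C1ql2, a C1q-like secreted ligand that in the hippocampus is known to bind kainate receptors at mossy fibre synapses. At 7 h its levels were 3.23, 3.21 and 3.44 in control and 1.24, 1.89 and 2.42 in OGD cultures. At 24 h they were 2.35, 2.66 and 2.64 in control and 1.18, 1.88 and 2.04 in OGD cultures. Every OGD array was below every control array of its time. The change was −1.44 at 7 h (SE 0.307, limma adjusted p = 0.196) and −0.85 at 24 h (SE 0.307, adjusted p = 0.307). The 24 h call was lost without OGD replicate 1 (−0.59), control replicate 2 (−0.80) or control replicate 3 (−0.80).

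C1ql1, a ligand of the same family, was called lower at 7 h and not at 24 h. Its levels were 0.39, 1.12 and 0.71 in control and −0.79, −0.53 and 0.21 in OGD cultures at 7 h, a change of −1.11 (SE 0.333, limma adjusted p = 0.276). At 24 h they were 0.80, 1.22 and 1.53 in control and 1.44, 1.38 and 0.63 in OGD cultures, a change of −0.04 (adjusted p = 1). The difference between its responses was 1.08 (limma adjusted p = 1). C1ql3 was lower at 24 h by 1.03 on the log2 scale (limma adjusted p = 0.33). Its other probes gave −1.03 (adjusted p = 0.435) and −0.09 (adjusted p = 0.967). The probe with −0.09 was too dim to show a fall. Its 24 h means were −5.15 in control and −5.24 in OGD cultures, where the lowest level well above background was −4.97 to −3.31, depending on the array. The C1ql3 call was lost without OGD replicate 1 (−0.55), OGD replicate 2 (−1.07), control replicate 1 (−0.89) or control replicate 3 (−0.94). It was also lost without both replicate 1 OGD arrays (−0.55), over the mean of its probes (−0.72, the dim probe included), with the methods' t-test and with limma on 24 h alone. Cbln1, the cerebellin that links delta receptors to neurexins, stood at 1.38, 0.51 and 0.62 in control and −1.10, 0.13 and −0.18 in OGD cultures at 24 h. That was a change of −1.21 (SE 0.398, limma adjusted p = 0.29), lost without control replicate 1 (−0.94) and with the methods' t-test. With normexp background correction it was −0.77.

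Among the intracellular partners, Pick1, a PDZ protein that binds kainate and AMPA receptor subunits, was lower at 7 h. Its levels were 1.89, 2.24 and 1.99 in control and 0.47, 1.11 and 1.30 in OGD cultures, a change of −1.08 (SE 0.275, limma adjusted p = 0.255). At 24 h the change was −0.45 (adjusted p = 0.47). Dlg4, which encodes the scaffold PSD-95, was lower at 24 h by 0.56 on the log2 scale (SE 0.172, limma adjusted p = 0.281), from 0.03, 0.27 and 0.01 in control to −0.51, −0.29 and −0.56 in OGD cultures. That call was lost with normexp background correction (−0.30). Grid2ip, a scaffold of delta receptors, had a change of −1.14 at 7 h (limma adjusted p = 0.261), but it was dim, was not well above background on 2 of the 3 OGD arrays of that time, and changed sign (0.50) with another background correction. The remaining partners did not pass at either time. They included the auxiliary subunit gene Neto1 (−0.65 with adjusted p = 0.672, and −0.78 with adjusted p = 0.544) and the RNA editing enzyme gene Adarb1 (−0.14, and −0.87 with adjusted p = 0.369).

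**Figure D4:**
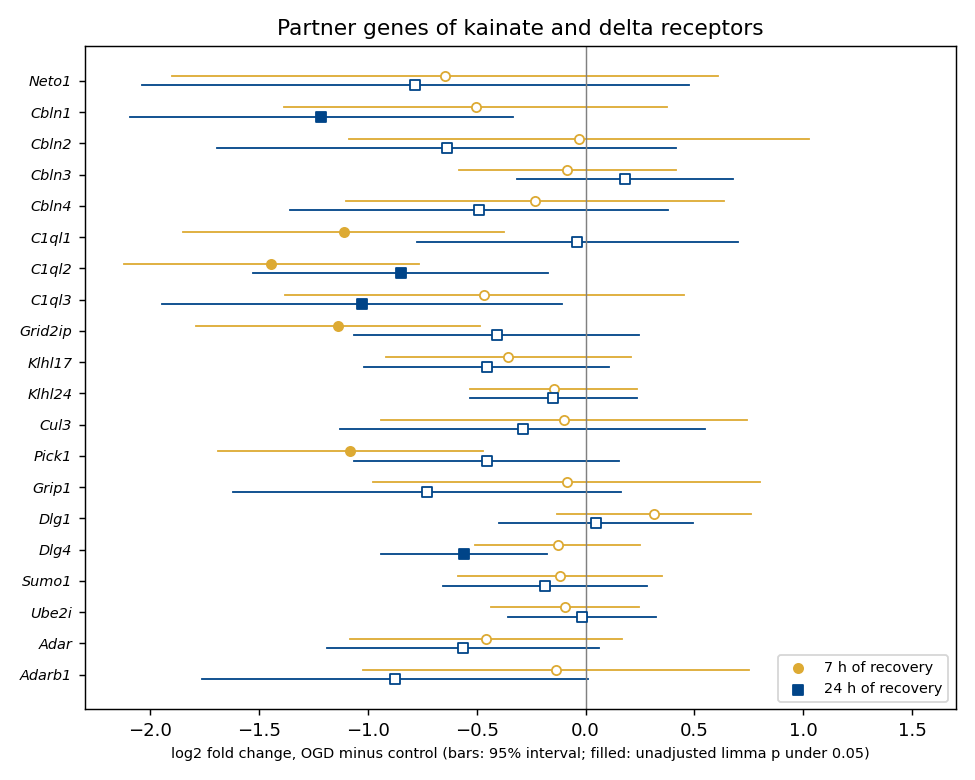
Log2 fold changes of OGD over control (horizontal axis) for 20 of the 21 partner genes with a probe (vertical axis), with 95% intervals of the limma fit, circles for 7 h and squares for 24 h. Filled symbols have an unadjusted p under 0.05; all 8 lie below 0, and most open symbols lie on the same side.

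The other ionotropic glutamate receptor genes give a scale for these changes. The 4 AMPA receptor genes had a median change of −0.35 at 7 h and −0.87 at 24 h, with 0 and 2 called lower. The 7 NMDA receptor genes had −0.29 and −0.99, with 1 called higher at 7 h and 5 called lower at 24 h. For these counts and those of the marker lists below, the reference is all 15154 named genes. Of those, 589 were called higher and 1221 lower at 7 h, and 964 and 1045 at 24 h. The 6 kainate and delta receptor genes were at 0.01 and −0.44, and whether the families differ was not tested.

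Cell type markers moved with some of these results. Of the 11 neuronal markers, 2 were called lower at 7 h and 7 at 24 h (median changes −0.50 and −0.65). Their summed level at 24 h, in multiples of the array median, ranged from 556 to 730 in control cultures. In OGD cultures it was 298, 527 and 547, so 1 array lay far below the controls and the others just below them. At 7 h the ranges, 512 to 687 and 504 to 686, overlapped. Of 9 interneuron markers, 0 were called lower at 7 h and 4 at 24 h, with sums of 291 to 895 in control and 262 to 378 in OGD cultures at 24 h. The summed level of the 9 astrocyte markers was higher at 7 h, when Grid1 was higher. It was 1150 to 1470 after OGD against 929 to 1060 in control. The median change of these markers was only 0.13, with 8 above 0 and 1 below (Fgfr3, −0.47). The 2 of 9 called higher, Aldoc (0.65) and Slc1a3 (0.52), were the brightest and weigh most in the sum. At 24 h the astrocyte sums overlapped (921 to 1230 against 980 to 1170), with a median change of −0.12. The 10 microglial markers summed to 15.9 to 27.8 after OGD and 15.7 to 16.3 in control at 7 h. Of these, 1 was called higher (Cx3cr1, by 1.02), while 6 of 10 changes were below 0 (median −0.07). Their sums at 24 h were 25.1 to 35.0 and 20.7 to 25.4, with 1 called higher (Cd68, by 0.97) and a median change of 0.26. The 7 vascular and fibroblast markers summed to 53.9 to 169 after OGD and 37.4 to 126 in control at 7 h. Of these, 2 were called lower (Pecam1 and Cldn5), and 5 of 7 changes were below 0 (median −0.66). Their sums at 24 h were 106 to 179 and 31.4 to 116. There 1 was called higher (Pdgfrb, by 1.34), and 4 of 7 changes were below 0 (median −0.32). The sums rest mostly on the bright Col1a1 and Col1a2, which were not called. For the 10 oligodendrocyte lineage markers the sums overlapped at both times (109 to 229 against 184 to 193, and 260 to 458 against 222 to 326), with Sox10 called lower at 7 h and Olig2 higher at 24 h. The marker genes named in this paragraph were picked out after their values were seen. No marker of these lists was below background on all arrays. In such bulk samples fewer cells of a type and less RNA per cell cannot be told apart, and the part of cell composition in the receptor results was not tested.

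**Figure D5:**
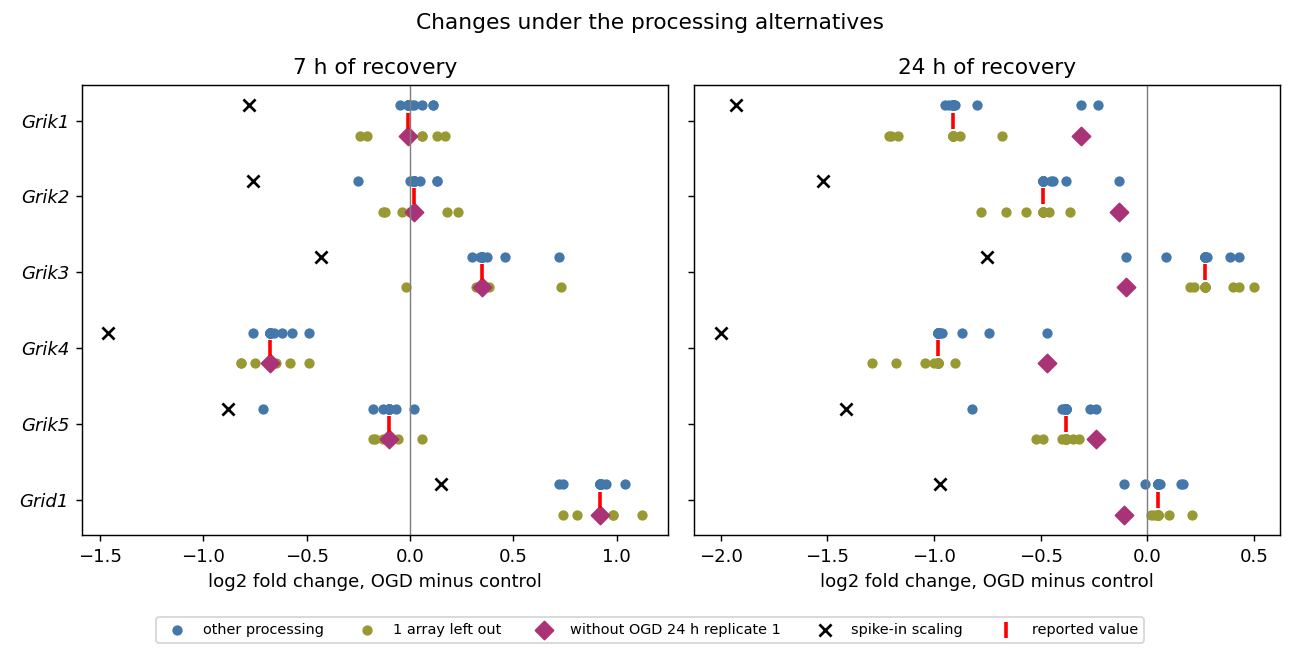
Log2 fold changes of OGD over control (horizontal axis) of the 6 genes (vertical axis) at 7 h (left) and 24 h (right) as reported (red line), under other processing (blue dots), with spike-in scaling (crosses) and with 1 array left out (olive dots, and diamonds for OGD replicate 1 at 24 h). Grid1 at 7 h and Grik4 at both times kept their sign in every setting, as did Grik1, Grik2 and Grik5 at 24 h. Without OGD replicate 1 the 24 h values of Grik1, Grik2 and Grik4 came closer to 0.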

How the data were processed

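Gene expression was measured on Agilent one-colour rat arrays with Cy3-labelled RNA (200 ng per labelling, per the labels). The authors extracted spot intensity values with Feature Extraction (version 10.5.1.1, per the file headers), which subtracts background. The deposited log2 values of the series table are the same signals shifted by 1 constant per array, to within 0.01 for at least 99.9967% of the probes; they served as an alternative.

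From the deposited intensity values, outlier-flagged spots were removed, spots of a probe averaged on the log2 scale and each array centred on its median over 30367 probes without controls (42877 spots). Probes were named through RefSeq accessions (18004 matched, 15154 genes), and the probe with the highest mean level was used per gene. limma 3.58.1 (R 4.3.3) was fitted to all probes with 4 groups of 3 arrays, which share 1 estimate of spread. p-values were adjusted by Benjamini-Hochberg over all probes, calls were made at an unadjusted p under 0.05, and 95% intervals come from the fit. The script was tested on simulated data. The authors' methods centred on the median and used a t-test with a fold of 2.

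The named genes were the 6 receptor genes, the partner genes with p under 0.05 at either time and, per receptor gene, the 3 named genes with the highest Pearson r over 12 arrays. The members and lists were chosen with earlier results of these data known. The alternatives covered centring, quantile normalization, spike-in scaling, background correction, dim probes, outlier spots, probe averaging, the series table, the methods' t-test, each time alone, slide blocks and leaving out arrays. The cultures are described as separate preparations, and the small number of arrays limits the precision. No probe sequences were used here, and 1 partner gene, kept in the counts, is not reported here by itself.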

Additional observations from a re-analysis of the deposited data

Results flagged for a closer look

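The responses to OGD at 7 h and 24 h differed, by the test of the difference itself at an unadjusted limma p under 0.05, for 1 of the 6 receptor genes and 1 of the partner genes. The Grid1 response was 0.92 at 7 h and 0.05 at 24 h, a difference of −0.87 (limma adjusted p = 1). The C1ql1 response was −1.11 at 7 h and −0.04 at 24 h, a difference of 1.08 (limma adjusted p = 1). Both lost the call under several alternatives. The 7 h and 24 h arrays were on different slides, so recovery time and slide cannot be told apart, though each response is a difference within its own time.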

How the results depend on the processing

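Precision was limited by 3 arrays per group, by dim probes (Grik3 and Grid2ip) and by scaling, since only 1 of 10 spike-in kinds was usable. The main counts were 1 receptor gene higher and 0 lower at 7 h, 1 lower at 24 h and 1 changed between the times, and for the partners 4 lower, 0 higher, 4 lower and 1 changed. Where a cause is not given, the cause was not tested.

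With 75th percentile centring (median of all probes 0.06 and 0.12), 0 receptor genes and 0 partners changed between the times. Quantile normalization gave 2 receptor genes lower at 24 h. Spike-in scaling gave 0 receptor genes higher at 7 h, 0 lower at 24 h and 0 changed. Under it 1, 1 and 0 partners were lower at 7 h, lower at 24 h and changed. Of all probes it called only 349 (7 h) and 542 (24 h), against 3590 and 4160 in the main fit. Normexp background correction, applied to median spot signals and chosen after seeing the data, gave 1 receptor gene lower at 7 h, 0 changed and 0 partners changed. The authors' values gave 0 partners changed. The methods' t-test gave 1 partner higher at 7 h, 0 receptor genes lower at 24 h and 2 partners lower at 24 h. limma on each time alone gave 1 receptor gene lower at 7 h and 0 at 24 h. Without both replicate 1 OGD arrays, also chosen after seeing the data, 1 receptor gene was lower at 7 h and 0 partners changed.

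With 1 array left out, receptor genes lower numbered 0 to 1 at 7 h and 0 to 4 at 24 h (4 without OGD replicate 3 of 24 h), and receptor genes changed 0 to 1. Those 4 were Grik1, Grik2, Grik4 and Grik5. Partners higher at 7 h numbered 0 to 1, partners lower at 24 h 2 to 8 (8 without OGD replicate 3) and partners changed 0 to 3.

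Signs turned for small changes. Grik1 at 7 h became 0.11 (75th percentile), 0.01 (quantile), 0.11 (normexp), 0.02 (authors' values) and 0.06 (without both replicate 1 OGD arrays), and −0.24 to 0.17 with 1 array left out. Grik2 at 7 h became −0.76 (spike-in), −0.25 (normexp), 0 (without both) and −0.13 to 0.23. Grik3 became −0.43 (spike-in) and −0.02 to 0.73 at 7 h, and −0.75 (spike-in), −0.10 (without both) and −0.10 to 0.50 at 24 h, and its difference between times −0.46 to 0.30. Grik5 at 7 h became 0.02 (75th percentile) and −0.18 to 0.06. Grid1 at 24 h became −0.01 (quantile), −0.97 (spike-in), −0.11 (without both) and −0.11 to 0.21. The Grik4 difference between times became 0.02 (normexp), 0.01 (without both) and −0.60 to 0.21. Grid2ip with normexp became 0.50, 0.13 and −0.37 at 7 h, at 24 h and between times, Dlg4 at 7 h 0.03, and C1ql1 at 24 h 0.08 (75th percentile), 0.05 (quantile) and −0.23 to 0.22.

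Control and OGD arrays of a replicate number share a slide, but deviations of same-slide arrays correlated at −0.05, 0.111 and −0.012 at 7 h and 0.084, 0.169 and −0.011 at 24 h, so the numbers were not taken as pairs. With the slide as a fixed replicate block, Grid1 at 7 h (0.92) and Grik4 at 24 h (−0.98) kept their calls, and 0 partners changed between the times. As a random block (consensus correlation 0.018) both kept them too.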
